A study of Oryza sativa with 4 samples.

Results

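The Aux/IAA repressor family of rice was described in root hairs, from probes whose names start with the RAP (Rice Annotation Project) identifier of 1 of 31 listed family genes. The microarray carried 53 probes for 30 of these genes, among 29690 genes with a RAP identifier, and held no probe for Os11g0221200. Members were chosen by identifier and not by signal. The RAP identifiers are used below, except for OsIAA11, OsIAA12 and OsIAA20, whose names the study's annotation pairs with probes on the array.

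Total RNA came from root hairs of rice seedlings 3 days after germination. The hairs were rubbed off frozen seminal roots of seedlings grown from sterilised seeds on agar medium, and the RNA was hybridised in 1 colour (Cy3) to 4 Agilent rice arrays. Arrays 1, 2 and 3 are labelled with the cultivar Don-gin and array 4 with Lon-gin, whereas the study's methods describe replicates of a single cultivar. The file headers place arrays 1 and 2 on slide 1 with 1 scan, and arrays 3 and 4 on slide 2 with another. The arrays hold 1 condition and no other tissue, so levels are described, and a difference between slides is a difference between technical batches that also separates samples. Fewer hair cells of a kind and less RNA per cell cannot be told apart in bulk samples such as these.

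Aux/IAA proteins are short-lived nuclear repressors. They bind auxin response factors (ARFs), the transcription factors that sit on auxin-responsive promoters, and recruit TOPLESS co-repressors to keep those promoters silent. Auxin joins an Aux/IAA protein to a TIR1/AFB receptor, an F-box protein, which sends the repressor for degradation, and many Aux/IAA genes are themselves induced by auxin. In Arabidopsis, mutations that stabilise certain Aux/IAA proteins reduce or abolish root hairs.

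The study searched the promoters of its root hair-preferential genes for the root hair element (RHE), a cis-element first described in promoters of Arabidopsis root-hair genes. The matches that it lists for family members are shown because they belong to members whose levels are described in detail. Each is written as listed, from the minus strand of the promoter window, with capitals marking the TG pair and the block near the 3′ end where the element has its conserved letters. The marked block differs among the 3 matches. The listing held 2 matches for OsIAA12, 1 for OsIAA20 and none for OsIAA11, and the other members were not part of that search. A match is a description of letters and was not tested for function here.
OsIAA12, first match: attgTGtggGCACGta
OsIAA12, second match: atatTGccgGCCCGtt
OsIAA20: acttTGaaaCCACGat

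Most of the family gave signal in root hairs. A gene was counted as detected on an array when at least 1 of its probes carried the scanner software's mark for a signal well above background. By this rule 23 of 30 members, or 76.7%, were detected on all 4 arrays, beside 67.9% of all 29690 genes. A further 6 members were detected on some arrays, and Os02g0723400 was detected on none, beside 10.9% of all genes. Member counts per array were 23 and 24 on slide 1 and 29 on each array of slide 2. Over all genes the shares were 69.6% and 72.3% on slide 1 against 84.4% and 87.5% on slide 2, so the larger count on slide 2 was shared by the array as a whole.

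Levels are given below as log2 of the processed signal, scaled so that the 75th percentile of every array was the same. The signal of a probe depends on its sequence as well as on its transcript, so levels are set against each other only for the same gene across arrays. On this scale 17 of 30 members, or 56.7%, were above 8 on every array, beside 40.2% of all genes.

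**Figure D1:**
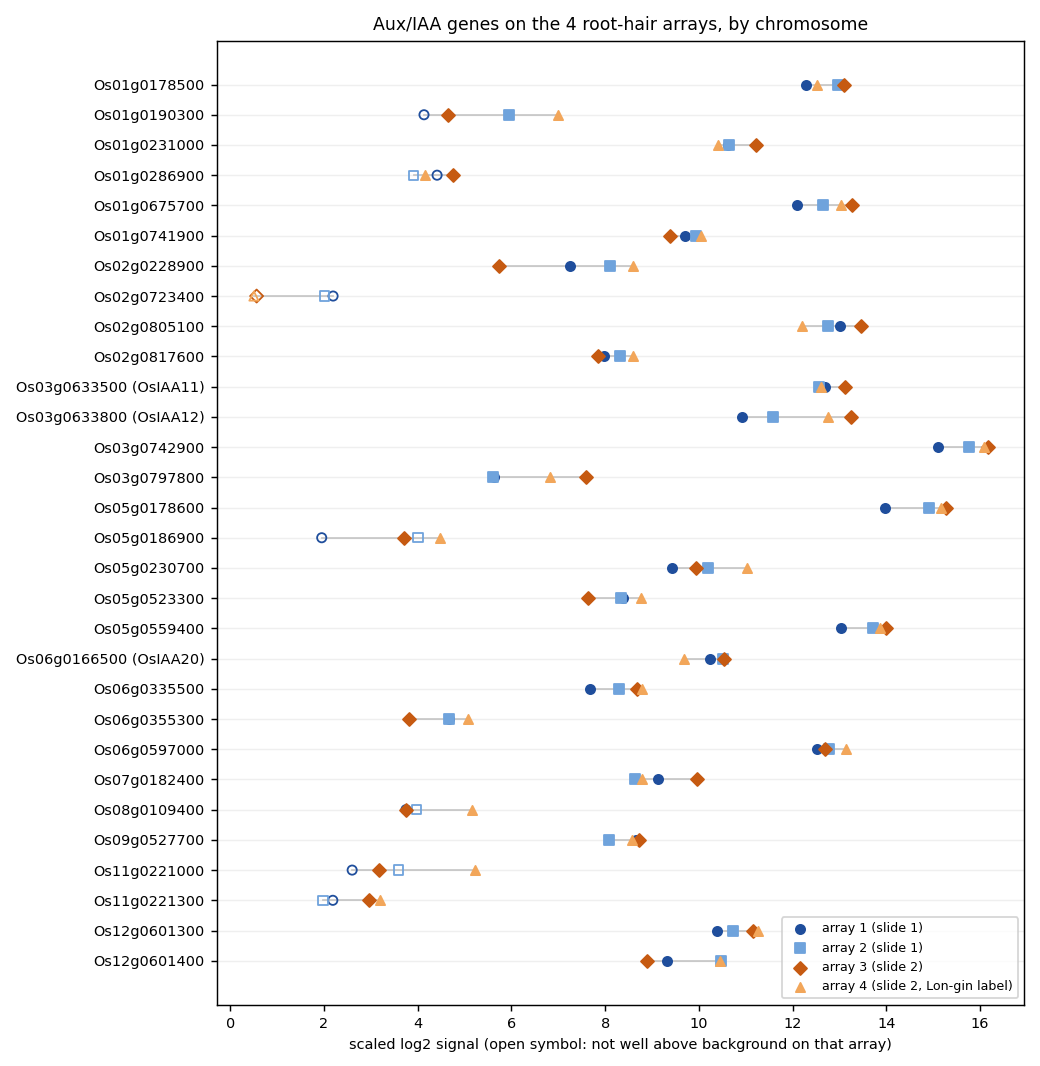
Scaled log2 signal (x axis) of the 30 Aux/IAA genes with a probe (y axis, in order of identifier) on the 4 root-hair arrays, 1 symbol for each array, filled where a probe was well above background. OsIAA12 ran from 10.93 to 13.25 with its slides apart, whereas OsIAA11 stayed between 12.57 and 13.12.

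Of the family, 3 members are in the study's list of root hair-preferential genes: OsIAA11, OsIAA12 and OsIAA20. The study chose that list partly on these arrays, so their signal in root hairs is not independent evidence of preference. OsIAA11 (Os03g0633500), a repressor whose stabilised form blocks lateral root formation in rice, had levels of 12.68, 12.57, 13.12 and 12.60 on arrays 1 to 4. Its mean was 12.74 ± 0.26 (SD, n = 4), the smallest SD of the 23 detected members, and its slides overlapped. The probe of OsIAA11 is named on the array for an assembled transcript cluster and not for a RAP transcript.

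OsIAA12 (Os03g0633800) had levels of 10.93, 11.58, 13.25 and 12.75 on arrays 1 to 4, with a mean of 12.13 ± 1.06 (SD, n = 4). Its 2 values on slide 2 exceeded those on slide 1, and the slide means were 3.34-fold apart. OsIAA20 (Os06g0166500) had levels of 10.24, 10.52, 10.53 and 9.68, with a mean of 10.24 ± 0.40 (SD, n = 4). Its lowest value was on the array labelled Lon-gin, and its slides overlapped.

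OsIAA11 and OsIAA12 are neighbours on chromosome 3, with 0 protein-coding genes between them in RefSeq's rice annotation (assembly ASM3414082v1). The pair did not vary alike: across arrays OsIAA11 spanned 0.55 and OsIAA12 spanned 2.32 on the log2 scale. RefSeq also lists 2 adjacent IAA genes on chromosome 12, where the family has the consecutive identifiers Os12g0601300 and Os12g0601400. Os12g0601300 had levels of 10.39, 10.73, 11.15 and 11.25, so that slide 2 lay above slide 1. Os12g0601400 had levels of 9.31, 10.47, 8.88 and 10.46, lower on arrays 1 and 3 than on arrays 2 and 4, with overlapping slides. As on chromosome 3, 1 member of the pair was ordered by slide and the other was not. Each gene of both pairs was read by 1 probe only.

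Across the detected members, 8 of 23, or 34.8%, had both slide 2 arrays above both slide 1 arrays, beside 25.9% of all 20153 genes detected on all 4 arrays. No member showed the opposite order, which 27.8% of those genes showed, so in either direction the slides were apart for 8 members beside 53.7% of genes. The 8 members were Os01g0675700, OsIAA12, Os03g0742900, Os03g0797800, Os05g0178600, Os05g0559400, Os06g0335500 and Os12g0601300. The differences of slide means ran from 0.55 to 1.74 on the log2 scale, or 1.47-fold to 3.34-fold. The median difference over all 23 members was 0.26, against -0.01 over all 20153 genes.

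Os03g0797800 had levels of 5.62, 5.61, 7.59 and 6.81 on arrays 1 to 4, with a slide difference of 1.58 that was second to that of OsIAA12. Os05g0178600 had levels of 13.96, 14.91, 15.27 and 15.17. Os01g0675700 had levels of 12.09, 12.65, 13.27 and 13.03. In these 3 genes both slide 2 arrays were high, and in Os05g0178600 and Os01g0675700 array 1 was also clearly below array 2.

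Os03g0742900 had levels of 15.10, 15.76, 16.16 and 16.09, its array 1 standing lowest. Os05g0559400 had levels of 13.04, 13.71, 14.00 and 13.87. Os06g0335500 had levels of 7.67, 8.30, 8.68 and 8.79. Array 1 was the lowest array in each of these 3 genes as well, and the gap from array 1 to array 2 was larger than that from array 2 to either array of slide 2. The ascending order array 1, array 2, array 4, array 3 was shared by 5 of the 23 members, beside 8.86% of all genes. This count was not among the planned results.

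Array 1 was the highest of the 4 arrays for 0 of 23 members, beside 33.0% of all genes detected on all 4 arrays. It was the lowest for 10 members, beside 28.8% of genes. Counts of this kind, and those within a slide below, were not among the planned results. Arrays 2, 3 and 4 were the lowest for 4, 6 and 3 members, beside 19.6%, 25.8% and 25.8% of genes. Array 3 was the highest for 13 members, beside 24.6% of genes, array 4 for 9 members, beside 25.9%, and array 2 for 1 member, beside 16.5%. Restricted to genes with a mean level above 8, array 1 was the highest for 0 of 20 members and for 40.5% of 13264 genes. These counts depended on the scaling: with quantile normalization array 1 was the highest for 3 of 23 members, beside 41.4% of genes, and with no scaling for 0 members, beside 0.695% of genes. Within slide 1, array 2 lay above array 1 in 17 of 23 members, beside 47.5% of all genes. Within slide 2, array 4 lay above array 3 in 10 of 23 members, beside 48.7% of genes.

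**Figure D2:**
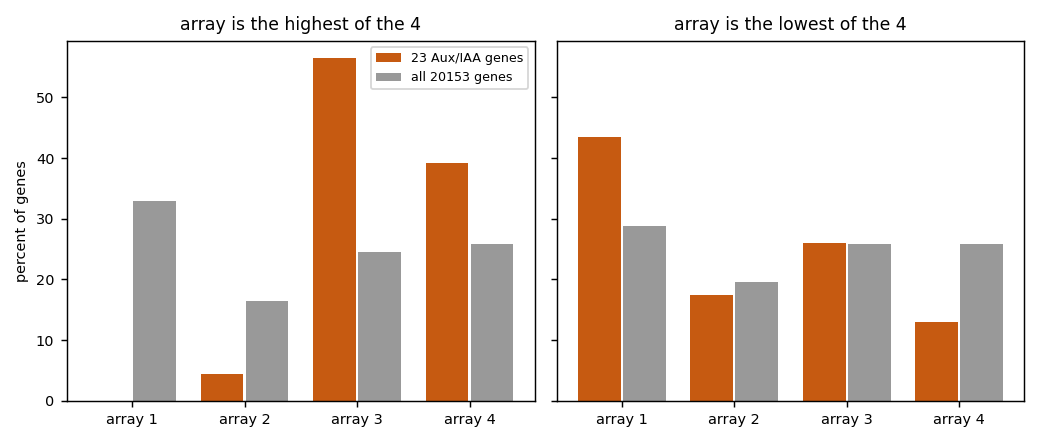
Percent of genes (y axis) for which each array was the highest (left) or the lowest (right) of the 4, for the 23 Aux/IAA genes detected on all 4 arrays and for all 20153 genes so detected. Array 1 was the highest for 0 Aux/IAA genes and for 33.0% of all genes, and array 3 was the highest for 13 Aux/IAA genes. These counts were not among the planned results.

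The spread over arrays differed among members. The median SD of the 23 members was 0.48 on the log2 scale, against 0.38 over all genes detected on all 4 arrays. Arrays were over 4-fold apart for 2 of 23 members, or 8.70%, beside 12.0% of all genes, and these were OsIAA12 and Os02g0228900. The largest SD belonged to Os02g0228900, with levels of 7.25, 8.10, 5.73 and 8.59 and an SD of 1.25, larger than that of 95.1% of genes. It was lowest on array 3 and highest on array 4, so its extremes lay on the same slide. Os05g0230700 had levels of 9.43, 10.18, 9.94 and 11.02, with an SD of 0.66, and was highest on array 4.

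At the other end, Os06g0597000 had levels of 12.51, 12.79, 12.69 and 13.14, with an SD of 0.26. Os09g0527700 had levels of 8.66, 8.09, 8.73 and 8.58, with an SD of 0.29, and array 2 was its lowest. Os01g0741900 had levels of 9.70, 9.94, 9.38 and 10.04, with an SD of 0.29. Slides overlapped in all 3 of these genes. Os02g0817600, with levels of 7.98, 8.31, 7.84 and 8.59 and an SD of 0.33, overlapped between slides too. The remaining 6 members detected on all 4 arrays had means from 4.55 to 12.86, SDs from 0.35 to 0.59 and slide differences from -0.22 to 0.49, all with overlapping slides.

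Weakly detected members were read against the lowest scaled level that any probe well above background had on each array, which on arrays 1 to 4 stood at 3.77, 3.90, 2.50 and 2.45. The floor was thus higher on slide 1. Os01g0190300 was detected on arrays 2, 3 and 4, with levels of 4.13, 5.94, 4.64 and 6.99 on arrays 1 to 4. Its levels were high on arrays 2 and 4 and low on arrays 1 and 3, with overlapping slides. Os02g0723400, which no array detected, had measured values of 2.19, 2.01, 0.56 and 0.50. Each lay below the floor of its array, and none is a detected level.

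The other 5 members were detected on both arrays of slide 2 and on neither of slide 1, beside 10.4% of all genes. They entered the limma fit through slide 2, so the direction of their difference follows from how they were grouped. An undetected probe can measure above the floor, as Os01g0286900 did on both slide 1 arrays, so no minimum fold is given. Each difference and its p are those of the measured values. Os08g0109400 measured 3.75, 3.97, 3.76 and 5.15 on arrays 1 to 4, a slide difference of 0.595 on the log2 scale (limma, adjusted p = 0.549). Array 4 alone was high in it. Os11g0221000 measured 2.60, 3.59, 3.18 and 5.22, a slide difference of 1.11 (limma, adjusted p = 0.467), again with array 4 highest and with overlapping slides.

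Os01g0286900 measured 4.41, 3.91, 4.75 and 4.15, a slide difference of 0.28 on the log2 scale (limma, adjusted p = 0.673), with overlapping slides. Os05g0186900 measured 1.95, 4.004, 3.70 and 4.47, a slide difference of 1.11 (limma, adjusted p = 0.458). Its arrays 1 and 2 were below or near their floors and not ordered against slide 2. Os11g0221300 measured 2.19, 1.97, 2.95 and 3.19. Its slide 2 values lay above its slide 1 values and below the slide 1 floors. On chromosome 11 the family has 3 close identifiers, and both of those with a probe, Os11g0221000 and Os11g0221300, were in this weakly detected group.

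The single probe named for Os06g0355300 carries as its transcript name a transcript of Os08g0109400, another member, so its signal cannot be assigned to either gene with certainty. It had levels of 4.66, 4.67, 3.82 and 5.07. Like the probe named for Os08g0109400, it was highest on array 4, but it was well above background on all 4 arrays.

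Several probes reported on 11 members, and most repeated the pattern of their gene. The spread among probes of 1 gene was taken on each array after removing the mean of every probe. Its median SD was 0.13 over the 11 members. In all 11 this spread was smaller than the spread of the gene among arrays. The 11 include Os02g0723400, which no array detected, so the agreement of its probes is not that of detected signal. The 5 probes of Os05g0559400 had slide differences between 0.49 and 0.60. In the 5 members ordered by slide that have several probes, each of their 16 probes put both slide 2 arrays above both slide 1 arrays. The other members ordered by slide, OsIAA12, Os03g0797800 and Os12g0601300, have 1 probe each. Probes of the same gene share its RNA, so these are repeat measurements and not replicates.

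**Figure D3:**
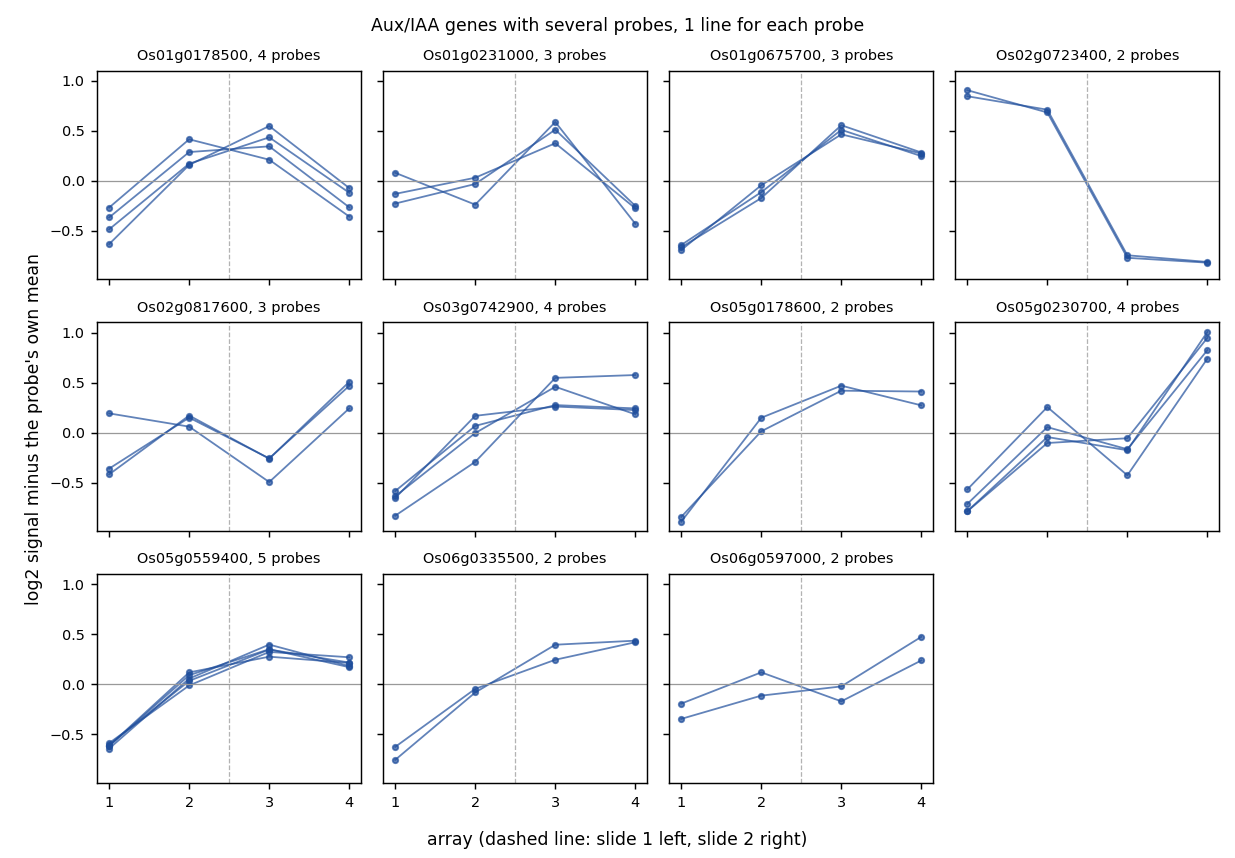
Log2 signal of each probe minus its own mean over the 4 arrays (y axis) against the array (x axis), 1 line for each probe of the 11 Aux/IAA genes with several probes. The lines of a gene run close together, as in Os05g0559400, whose 5 probes had slide differences of 0.49 to 0.60. Os02g0723400 was detected on no array.

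Probes of 1 gene differed in their order of slides in a few cases. In Os01g0231000 the probe means ran from 6.06, for transcript variant Os01t0231000-02, to 13.19, a spread that enters the gene's mean and is not read as a difference in transcript level, and all its probes overlapped between slides. In Os05g0230700 and Os06g0597000, 1 probe of each gene had slide 2 above slide 1 and the others overlapped. The 4 probes of Os01g0178500 had slide differences from -0.15 to 0.47.

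The slide comparison asked how far family members differed between the technical batches. limma was fitted over every gene that both arrays of either slide detected, with 2 residual degrees of freedom and Benjamini-Hochberg adjustment. It called 0 of 29 members, of which the 6 detected on some arrays only entered through slide 2, beside 3.60% of 24751 genes, with 850 genes (3.43%) higher on slide 2 and 40 (0.162%) lower. Members with an unadjusted p under 0.05 numbered 3, beside 21.0% of genes. They were OsIAA12, Os03g0797800 and Os11g0221300. The last entered the fit only through slide 2, where it is high, so its p is not evidence of a slide difference. OsIAA12 had the lowest adjusted p, with a log2 difference of 1.74 (95% interval 0.76 to 2.72, limma adjusted p = 0.0914). Os03g0797800 differed by 1.58 (95% interval 0.63 to 2.54, limma adjusted p = 0.103). The intervals of members reached from 0.72 to 2.71 to either side of the estimate, the narrowest in Os11g0221300, whose values lay below the slide 1 floors. They were not adjusted for the number of genes, and even the difference of 1.74 was not called. With 4 arrays, the lack of a call is therefore not evidence of equal levels.

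This result depended on the scaling, as the slides differed in brightness: before scaling, arrays 1 to 4 had a 75th percentile of 10.59, 10.73, 11.49 and 11.80. With no scaling 12 of 29 members were called, all higher on slide 2, beside 29.6% of genes, while the median slide difference of all detected genes moved to 0.98. The authors' log2 values gave 4 called members, beside 7.97% of genes. Without array 4, slide 2 was left with array 3 alone, the highest array of both OsIAA12 and Os03g0797800. Their log2 differences were then 1.99 and 1.97. Without array 1, array 2 or array 3 the difference was 1.42, 2.07 or 1.49 in OsIAA12. In Os03g0797800 it was 1.59, 1.58 or 1.20. Each of these fits had 1 residual degree of freedom and 1 array on 1 side, so only the differences are given.

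**Figure D4:**
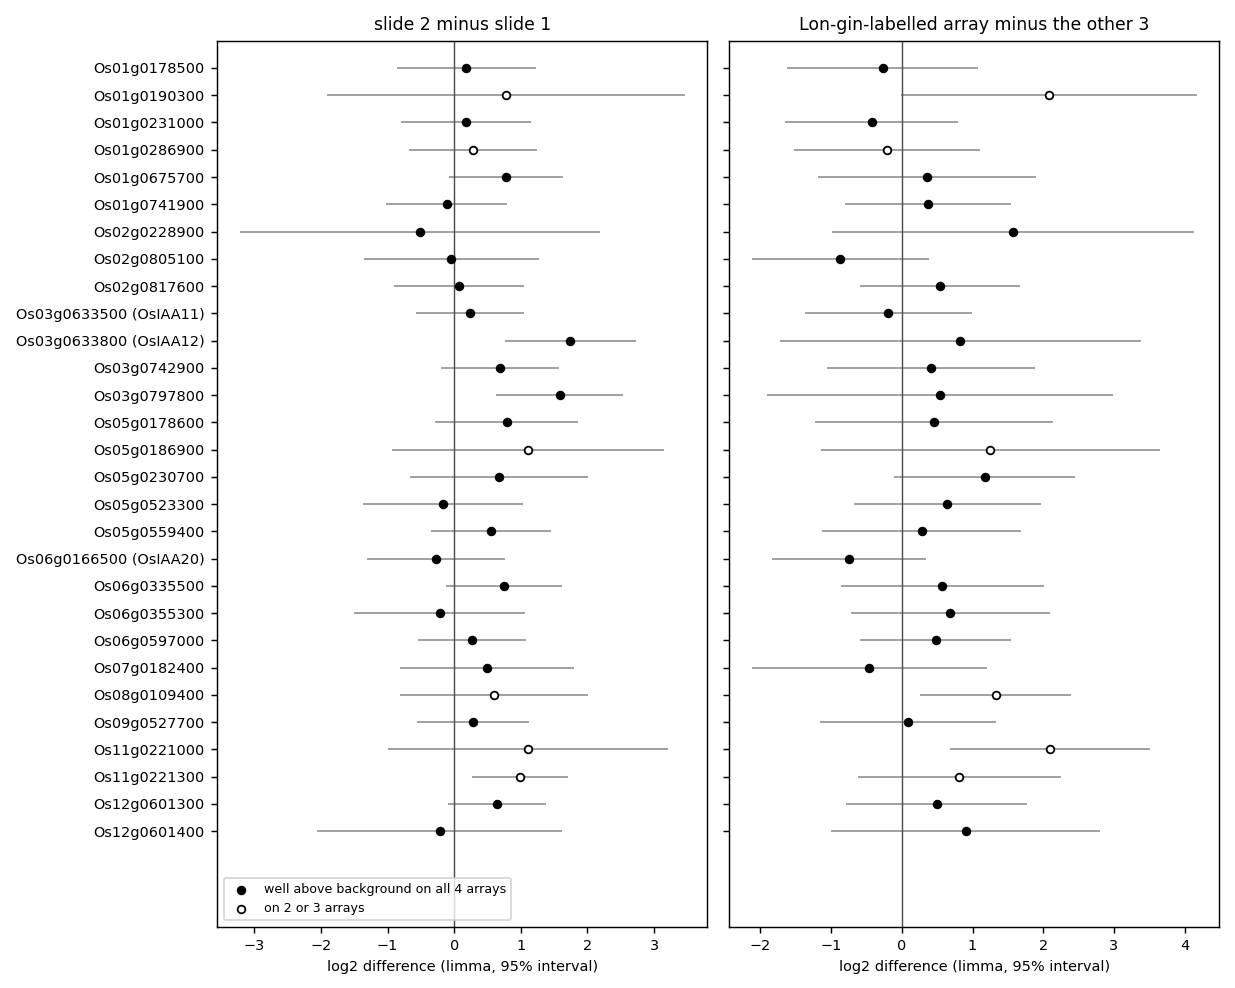
Log2 differences (x axes) with 95% limma intervals for the 29 Aux/IAA genes tested (y axis), slide 2 minus slide 1 on the left and the Lon-gin-labelled array minus the other 3 on the right. Filled points were detected on all 4 arrays, and 0 genes passed an adjusted p of 0.05 in either comparison.

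The comparison of the array labelled Lon-gin with the 3 labelled Don-gin follows the cultivar named in the labels, with 1 array on 1 side that was assumed to vary like the others. limma called 0 of 29 members and 0 of 26018 genes, or 0%, and at an unadjusted p under 0.05 the counts were 2 members and 2092 genes, or 8.04%. Os11g0221000 had the lowest adjusted p (limma adjusted p = 0.445). Of the 3 other arrays, 1 detected it, so the measured difference of 2.10 on the log2 scale rests partly on values below the floor. The 6 members detected on some arrays only entered this fit through array 4. Both members counted at the unadjusted threshold, Os08g0109400 and Os11g0221000, were among them and were highest on array 4. OsIAA20, which was lowest on array 4, differed by -0.75 (95% interval -1.84 to 0.34, limma adjusted p = 0.789).

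Array 4 shares slide 2 with array 3, and with slide as a block the comparison became array 4 against array 3, with 1 residual degree of freedom. It then called 1 of 29 members, beside 4.35% of genes. This was Os02g0228900, at 8.59 on array 4 and 5.73 on array 3, a difference of 2.86 (limma adjusted p = 0.0288). On slide 1 the same gene differed by 0.84 between arrays 1 and 2, which carry the same label. Label and sample cannot be told apart with 1 array, and without array 3 the called member was Os11g0221000 instead, beside 2995 of 26018 genes (limma adjusted p = 0.0341). That fit set array 4 against arrays 1 and 2, neither of which detected Os11g0221000, and the gene entered it through array 4, where it is high.

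Other auxin genes could be named only where the study's annotation ties a probe to a name, which left 2. These 2 and CSLD1, given below, are on the study's list of root hair-preferential genes. That list was chosen partly on these arrays, so their detection followed partly from that choice. OsGH3.2 (Os01g0764800), an enzyme that conjugates auxin to amino acids and is a common auxin-induced gene, had levels of 10.86, 11.89, 11.36 and 12.29 on arrays 1 to 4. Os04g0519700, annotated as an auxin response factor, had levels of 9.70, 9.21, 9.65 and 9.29. Slides overlapped in both genes, and limma called neither, so 0 of 2 passed in either direction for the slide (adjusted p = 0.646 and 0.975) or the label (adjusted p = 0.811 and 0.916). Among root-hair markers, CSLD1 (Os10g0578200), a cellulose synthase-like protein needed for root-hair growth in rice, was detected on all 4 arrays, with levels of 14.22, 14.03, 14.90 and 14.44. Its slide 2 values lay above its slide 1 values. The root-hair genes OsEXPA17, which the study used as its marker, and OsRHL1 were not read here, nor were markers of other root cells.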

How the data were processed

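Each array was scanned and read by the authors with Agilent Feature Extraction (11.5.1.1 per the file headers, 9.1 in the submitters' processing notes), and the deposited files give spot intensity after background subtraction with flags for detection. The authors also deposited log2 values of the same spots, which ranked exactly as the median spot intensity, had medians of 7.59 on slide 1 and 8.39 on slide 2, and served as an alternative. Their scaling was not stated in the sources used here. No genome build or aligner enters array data.

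Of 43734 non-control spots (42477 probes), 569 probes without a RAP identifier were left out. Spots of a probe, then probes of a gene, were averaged as log2 intensity after each array's 75th percentile was subtracted and the mean percentile added back. No spot was saturated. Depth has no counterpart here, and precision is limited by the number of arrays. Replicates are described as biological in the study's methods. No pair of arrays held identical data. SDs of log2 differences were 0.608 within slide 1, 0.821 within slide 2 and 0.848 to 1.06 between slides.

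limma 3.58.1 in R 4.3.3 tested the detected genes with Benjamini-Hochberg adjustment at 0.05, after a test on simulated data: for the slides, 24751 genes detected on both arrays of either slide, and for the label, 26018 genes detected on array 4 or on all 3 others. Values on every array are printed for members in the study's list, the 5 largest and 5 smallest SDs, members ordered by slide, weakly detected members and neighbours. Os06g0355300 was added for its transcript name. The members and lists were chosen with earlier results of these data known. Alternatives were quantile normalization, no scaling, normexp (offset 50, on the median signal and local background, then quantile), the authors' log2 values, the brightest probe, no filter on dim probes, slide as a block and each array left out. RefSeq's table (ASM3414082v1) gave gene order only, since it could not be joined to RAP identifiers. Protein and promoter sequences of the members were not used here.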

Additional observations from a re-analysis of the deposited data

Results flagged for a closer look

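Among the 30 members, 1 had an array that stood apart from the others by Dixon's criterion for 4 values, which chance alone meets in about 1 of 20 groups. The share of all genes that meet it is not given here, so the count is not read as a trait of the family. Os08g0109400 reached 5.15 on array 4, labelled Lon-gin, and its other arrays lay between 3.75 and 3.97. The gap made up 0.844 of its range. The gene was well above background only on slide 2, so its slide 1 values are not detected levels.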

How the results depend on the processing

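No paired analysis was possible because all arrays belong to 1 group and no replicate number is shared between groups. The count of members detected on all 4 arrays was 23, and 27 with the laxer mark for a positive and significant signal. The share of all genes with that laxer mark is not given here, so the 27 are not read as a trait of the family. The count was again 23 when the probe of Os06g0355300 was counted for Os08g0109400, an alternative added after the data were seen. Members called between slides rose from 0 to 12 with no scaling, beside 29.6% of genes, and to 4 with the authors' log2 values, beside 7.97%. With no filter on dim probes 1 was called (Os02g0723400, which no array detected), beside 8.08% of genes. Calls also changed with an array left out, but 1 slide then held a single array, so those calls are not counted here. Calls for the Lon-gin label changed with slide as a block and without array 3, as given above. They rest on array 4 alone, so they are not counted here. The members whose slides did not overlap numbered 8, all above, against 20 above with no scaling (85.2% of genes above, 0.516% below) and 19 with the authors' values (18 above, 1 below, beside 64.8% and 4.94% of genes). Quantile normalization gave 9 above and 1 below, beside 17.9% and 38.3% of genes, and normexp 9 above and 2 below, beside 17.9% and 38.4%. The 8 differences kept their sign under every alternative run, and the members' median difference exceeded that of all genes by 0.27 to 0.47. Members over 4-fold apart numbered 2, against 12 with no scaling (30.3% of genes), 4 with the authors' values (12.4%) and 1 with normexp (3.21%), and 0 to 2 with an array left out: Os02g0228900 fell below the limit without array 3, and OsIAA12 without array 1 or array 3. Levels moved by over 1 SD in 15 members with normexp and 7 with the authors' values, and in 3 with the brightest probe, among them Os01g0231000 from 10.72 to 13.19 and Os05g0230700 from 10.14 to 11.10. The cause of these shifts was not tested.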
